A study of Mus musculus with 6 samples.

Results

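The 10 genes described here, Tcf21, Tbx2, Tbx3, Tbx4, Tbx5, Foxf1, Meox2, Twist1, Prrx1 and Gli1, encode transcription factors that are used by lung mesenchyme, the connective tissue of the developing lung. They were chosen by name, with earlier results of these data known, and all 10 were found among the 31053 genes of the count tables. The cells came from the lungs of wild-type C57BL6 mouse fetuses at E17 (embryonic day 17), which were dissociated with liberase, frozen in DMSO and replated on a thin coat of diluted Matrigel, a basement membrane extract. The study concerns blood formation from fetal lung. All libraries share this history, with no genetic change and no untreated arm, and all cultures received a medium for haematopoietic stem and progenitor cells (HSPC) with mTPO, IL6, SCF, FGF, VEGF and Flt3. Wells were washed on day 3. Suspension libraries hold the cells floating in the medium on day 4, 5 or 6. Adherent libraries hold the attached layer of the same days, released with accutase and sorted to enrich live cells with VE-cadherin, an endothelial adhesion protein encoded by Cdh5. There was 1 library for each fraction and day, made with the 10x 3' v3 kit, which tags the 3' end of transcripts in droplets, so each fraction has 3 libraries. The fractions differ in attachment, enzyme treatment and sorting, and these cannot be told apart. Whether the days stem from separate cultures is not stated in the labels. The test between the fractions takes the 3 days of a fraction as its replicates, so its spread includes changes over the days. The p-values reflect no more than the spread among these 6 libraries, which may also be technical.

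Lung mesenchyme forms from the mesoderm around the epithelial buds and gives rise to fibroblasts, airway and vessel smooth muscle and pericytes. Sonic hedgehog from the epithelium acts on it through the Gli factors, of which Gli1 is itself a target gene, and Foxf1 is another target in this tissue. Tbx2, Tbx3, Tbx4 and Tbx5 are T-box factors of lung mesenchyme, Tcf21 and Twist1 are basic helix-loop-helix (bHLH) factors that pair with E proteins on E-box sites, and Meox2 and Prrx1 are homeodomain factors of mesoderm and connective tissue. Several of them are not limited to fibroblasts, since Foxf1 and Meox2 are also known from endothelial cells.

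Promoters of 3 of the genes are shown because their levels followed different courses over the days in adherent libraries, described further on: Tcf21 and Tbx4 passed the test for a higher level on later days, and Prrx1 did not. The sequences are from RefSeq (GRCm38.p6), which matched 5 of the 10 genes, and run 5′ to 3′ on the gene's strand from 250 bases before to 50 bases after the start. Capitals mark matches on either strand to any of the motifs E-box (CANNTG), T-box core (AGGTGT), forkhead core (TGTTTA), Gli site (GACCACCCA), homeodomain core (TAATTA) and TATA box (TATAAA). The first lies at chr10:22820094-22820393 on the minus strand.
Tcf21: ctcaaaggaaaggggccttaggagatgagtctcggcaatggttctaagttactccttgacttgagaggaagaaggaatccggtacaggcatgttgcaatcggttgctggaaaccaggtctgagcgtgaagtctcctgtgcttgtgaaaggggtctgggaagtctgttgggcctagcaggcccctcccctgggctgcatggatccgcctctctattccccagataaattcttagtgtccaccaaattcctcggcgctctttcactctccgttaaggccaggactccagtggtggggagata
The next lies at chr11:85896515-85896814 on the plus strand, inside the span of the GENCODE gene model.
Tbx4: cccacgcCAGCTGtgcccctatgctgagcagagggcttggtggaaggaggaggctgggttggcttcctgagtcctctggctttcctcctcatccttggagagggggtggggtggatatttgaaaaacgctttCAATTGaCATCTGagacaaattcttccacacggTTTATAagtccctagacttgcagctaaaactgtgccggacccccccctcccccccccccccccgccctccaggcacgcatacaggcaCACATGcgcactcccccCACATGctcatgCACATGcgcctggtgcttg
The last lies at chr1:163313601-163313900 on the minus strand.
Prrx1: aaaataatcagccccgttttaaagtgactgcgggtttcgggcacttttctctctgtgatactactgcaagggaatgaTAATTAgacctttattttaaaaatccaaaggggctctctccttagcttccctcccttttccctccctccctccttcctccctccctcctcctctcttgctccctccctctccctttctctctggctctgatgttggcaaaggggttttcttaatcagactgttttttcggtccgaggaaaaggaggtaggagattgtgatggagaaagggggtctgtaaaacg
The Tcf21 window held 0 matches to these letters. In the Tbx4 window there were 6 E-boxes and 1 TATA box, and the Prrx1 window held 1 homeodomain core. The matched windows not shown are those of Meox2 and Twist1, whose adherent slopes did not pass. Each held 1 TATA box, with 1 E-box for Meox2 and 1 T-box core for Twist1. A link between these letters and the course over the days was not tested. Of 32851 mouse promoters of the same length, 72.3% held an E-box, 13.7% a T-box core, 13.4% a forkhead core, 0.253% the Gli site, 5.29% the homeodomain core and 13.6% the TATA box. No matches overlap in these windows, and a match is a description of sequence and not a binding site.

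Gene counts per library summed to between 36451255 and 57784974, and the floor of 3 counts per library lay at 0.0594 to 0.0756 CPM (reads of a gene relative to the TMM-adjusted size of its library). Values are reads over all droplets of a library, not corrected for molecular identifiers, so floors cover counting error only. All 11 listed blood genes were higher in suspension (median log2 ratio 2.49), with summed levels of 43738, 47432 and 87541 CPM on days 4, 5 and 6 against 2574, 4161 and 7825 CPM in adherent libraries. All 12 listed endothelial genes were lower (median -7.47), with 22.9, 17.4 and 13.9 CPM in suspension against 925, 1791 and 705 CPM in adherent libraries. The list includes Cdh5, whose protein was used to sort the adherent cells, so this difference cannot be told apart from the sort.

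All 10 factors were lower in suspension than in adherent libraries (edgeR quasi-likelihood test, Benjamini-Hochberg adjusted p under 0.05), and 0 were higher. Of the 14912 genes tested, 29.7% were lower and 27.1% higher. All 10 passed the filter on low counts, and DESeq2 also called 10 lower and 0 higher, with 0 of the 10 higher at an unadjusted p under 0.05. Their log2 ratios (suspension over adherent) lay between -7.70 and -4.07 with a median of -4.95, where the median of all genes tested was -0.00247. For each of the 10 genes every suspension library was below every adherent library, which was so for 34.4% of the genes tested. Summed over the 10 genes, the level was 14.9, 13.6 and 4.75 CPM in suspension on days 4, 5 and 6, against 275, 299 and 369 CPM in adherent libraries. In libraries that sum over many cells, fewer cells of a type and less RNA per cell cannot be told apart. With the day as a block, which pairs the libraries of a day, all 10 were again lower.

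**Figure D1:**
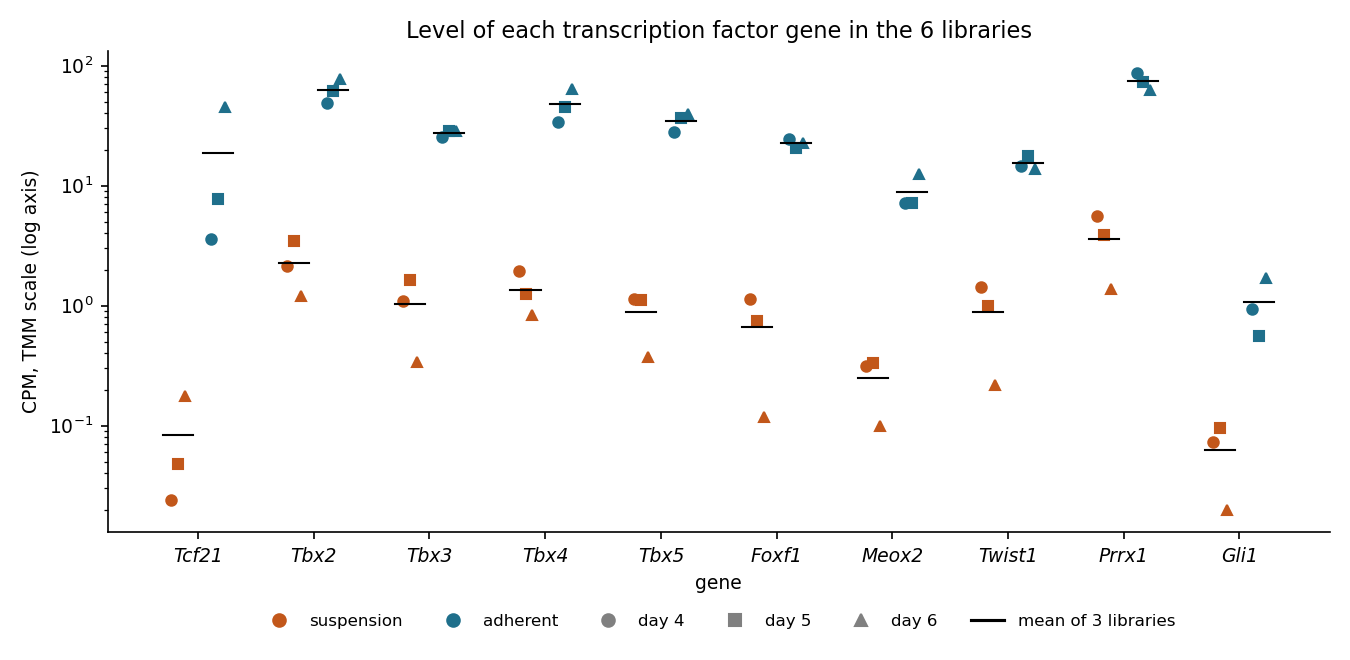
Level of each of the 10 genes in CPM (log axis) in every library, with suspension left of adherent for each gene, the marker shape giving the day and the bar the mean of 3 libraries. The fractions overlap for none of the 10 genes, and Tcf21 spreads most over the adherent days, with 3.62, 7.73 and 45.3 CPM on days 4, 5 and 6.

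Among the T-box factors, Tbx2 (ENSMUSG00000000093, mm10 chromosome 11, 85832551 to 85841948, plus strand), a repressor that keeps lung mesenchyme proliferating, had 2.16, 3.48 and 1.21 CPM in the suspension libraries of days 4, 5 and 6. In adherent libraries it was at 49.3, 61.3 and 78.0 CPM. Its log2 ratio was -4.79 ± 0.42 (SE, adjusted p = 0.000554, edgeR). Tbx3 (ENSMUSG00000018604, chromosome 5, 119670669 to 119684724, plus strand), its close relative, was at 1.09, 1.64 and 0.337 CPM in suspension and at 25.4, 28.3 and 28.8 CPM in adherent libraries. The adherent levels of Tbx3 were the most even of the 10 genes, with a coefficient of variation of 6.64%, and its log2 ratio was -4.76 ± 0.52 (SE, adjusted p = 0.000853, edgeR). Both genes were highest on day 5 and lowest on day 6 among suspension libraries.

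Tbx4 (ENSMUSG00000000094, chromosome 11, 85886422 to 85916097, plus strand) and Tbx5 (ENSMUSG00000018263, chromosome 5, 119832668 to 119885219, plus strand) act in lung bud outgrowth, and lie next to Tbx2 and Tbx3 on their chromosomes. Tbx4 was at 1.96, 1.26 and 0.832 CPM in suspension and at 34.0, 45.0 and 64.3 CPM in adherent libraries on days 4, 5 and 6, so the fractions moved apart with each day. The log2 ratio of Tbx4 was -5.15 ± 0.41 (SE, adjusted p = 0.000453, edgeR). Tbx5 was at 1.14, 1.12 and 0.376 CPM in suspension, against 27.9, 36.9 and 39.4 CPM in adherent libraries. The log2 ratio of Tbx5 was -5.32 ± 0.43 (SE, adjusted p = 0.000463, edgeR), lower than that of all but 2.37% of the genes tested.

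Foxf1 (ENSMUSG00000042812, chromosome 8, 121084386 to 121088144, plus strand), a forkhead factor needed for lung mesenchyme and lung vessels, was at 1.14, 0.739 and 0.119 CPM in suspension and at 24.4, 20.5 and 22.7 CPM in adherent libraries. It was low in suspension on every day and lowest on day 6, when 6 reads were counted. Its log2 ratio was -5.10 ± 0.65 (SE, adjusted p = 0.00133, edgeR), and -5.80 without the suspension library of day 4. Gli1 (ENSMUSG00000025407, chromosome 10, 127329882 to 127341974, minus strand) had 3, 4 and 1 sense counts in suspension and 41, 22 and 73 in adherent libraries, or 0.946, 0.554 and 1.70 CPM there. Such counts are near the floor in suspension. The log2 ratio of Gli1 was -4.07 ± 0.69 (SE, adjusted p = 0.00348, edgeR), and -2.28 with reads on either strand. The deposited either-strand counts are not the sense and antisense counts of Gli1 added up. Those were 8 sense and 578 antisense counts in suspension, against 136 and 96 in adherent libraries.

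Of the bHLH factors, Tcf21 (ENSMUSG00000045680, chromosome 10, 22817281 to 22820174, minus strand), which is needed for mesenchyme of lung and kidney and marks lipid-storing fibroblasts, had 1, 2 and 9 counts in suspension and 157, 307 and 1944 in adherent libraries. Its levels were 0.0242, 0.0477 and 0.178 CPM in suspension, of which the first 2 are below 3 counts, against 3.62, 7.73 and 45.3 CPM in adherent libraries. The log2 ratio, -7.70 ± 1.36 (SE, adjusted p = 0.00400, edgeR), was lower than that of all but 0.349% of the genes tested. Leaving out the adherent library of day 6 gave -5.97, and leaving out the suspension library of that day gave -8.93. Twist1 (ENSMUSG00000035799, chromosome 12, 33957671 to 33959829, plus strand), a factor of mesoderm and of cells leaving an epithelium, was at 1.43, 1.001 and 0.218 CPM in suspension and at 14.7, 17.7 and 13.8 CPM in adherent libraries. Its log2 ratio was -4.13 ± 0.60 (SE, adjusted p = 0.00203, edgeR), and -4.72 without the suspension library of day 4.

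Among the homeodomain factors, Prrx1 (ENSMUSG00000026586, chromosome 1, 163245119 to 163313710, minus strand), a gene of fibroblasts in many tissues, was at 5.62, 3.91 and 1.37 CPM in suspension and at 87.6, 73.2 and 62.5 CPM in adherent libraries. It was lower on each later day in both fractions. The log2 ratio of Prrx1 was -4.36 ± 0.51 (SE, adjusted p = 0.00106, edgeR). Meox2 (ENSMUSG00000036144, chromosome 12, 37108540 to 37179534, plus strand) was at 0.315, 0.334 and 0.0990 CPM in suspension, the last from 5 counts, and at 7.13, 7.23 and 12.4 CPM in adherent libraries. Its log2 ratio was -5.17 ± 0.51 (SE, adjusted p = 0.000661, edgeR).

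The course over the days was tested within each fraction. In adherent libraries 2 of the 10 genes were higher on later days, where 7.75% of the genes tested were, and 0 were lower, where 3.52% were (edgeR, with 2 of the 10 at an unadjusted p under 0.05, both higher, and 0 lower by DESeq2). Of the 14912 genes tested, 4527 had an adherent slope at an unadjusted p under 0.05 in either direction (edgeR). Tcf21 had a slope of 1.84 ± 0.20 log2 per day (SE, adjusted p = 0.0117, edgeR) and was 12.5 times as high on day 6 as on day 4. Only 0.811% of the genes tested had a higher adherent slope. Without the adherent library of day 6 the slope of Tcf21 was 1.09 (adjusted p = 0.175). Tbx4 had a slope of 0.46 ± 0.06 log2 per day (SE, adjusted p = 0.0175, edgeR) and a level on day 6 that was 1.89 times that on day 4. Its adjusted p was between 0.0625 and 0.203 without any 1 library other than the adherent one of day 5, and 0.0101 without that one. For the other 8 genes the adherent slopes were between -0.24 for Prrx1 and 0.44 for Gli1 and did not pass.

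In suspension, 9 of the 10 slopes were below 0 and 0 passed by edgeR, where 0.402% of the genes tested were lower on later days. Over all genes tested, 7695 of 14912 suspension slopes were below 0. At an unadjusted p under 0.05 (edgeR) there were 5 of the 10, against 2457 of the 14912 genes tested in either direction. DESeq2 called 4 lower, namely Tbx4, Foxf1, Twist1 and Prrx1, where it called 613 lower over all genes. Foxf1 had the lowest slope, at -1.36 ± 0.29 log2 per day (SE, adjusted p = 0.130, edgeR), and its level on day 6 was 0.104 times that on day 4. Twist1 followed at -1.20 ± 0.28 (SE, adjusted p = 0.148, edgeR) and Prrx1 at -0.98 ± 0.15 (SE, adjusted p = 0.0699, edgeR). Prrx1 passed without any 1 adherent library or without the suspension library of day 5, and Tbx4, at -0.62 ± 0.09 (SE, adjusted p = 0.0689, edgeR), without the adherent library of day 4 or day 5. Tcf21, on 12 counts, was the gene with a slope above 0.

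**Figure D2:**
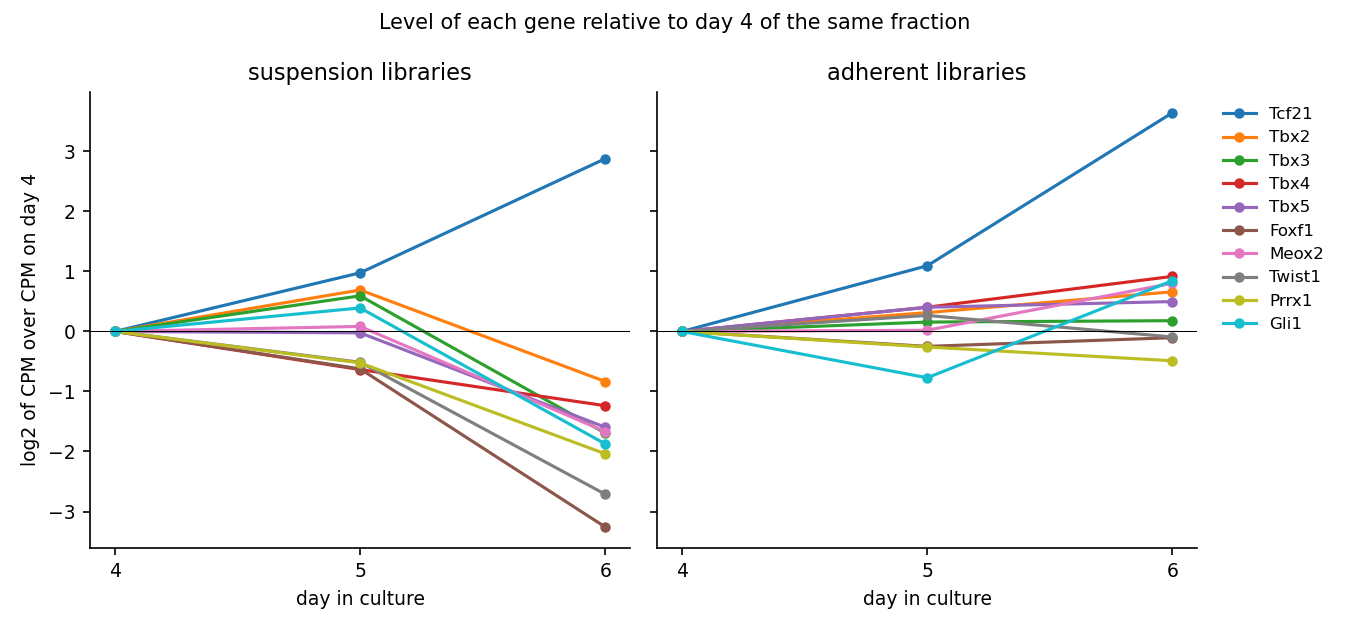
Level of each gene on days 4, 5 and 6 as log2 of its CPM over its CPM on day 4, with suspension libraries left and adherent libraries right, 1 library per point. In suspension 9 of the 10 genes end below their level of day 4, and in adherent libraries Tcf21 ends 12.5 times above it.

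The difference between the slopes, suspension minus adherent, was below 0 for all 10 genes, with a median of -1.02 log2 per day against -0.07 for all genes tested. Over all genes tested it was below 0 for 8959 of 14912. It was also below 0 for all 15 fibroblast genes (median -1.31), all 11 pericyte and smooth muscle genes tested (-1.26), all 9 mesenchymal signal genes tested (-1.09) and all 11 blood genes (-0.69), so this direction is not particular to the 10 factors. Tbx4 passed, at -1.08 ± 0.11 (SE, adjusted p = 0.0485, edgeR), so 1 of 10 was called where 0.463% of the genes tested were called lower. That p was close to the threshold, was between 0.0631 and 0.682 without any 1 library other than the adherent one of day 5, was 0.0505 with counts thinned to the smallest library, and was 0.0582 without globin and mitochondrial genes. With the day 5 adherent library left out, the p was 0.0190. For a slope common to both fractions 0 of the 10 passed by edgeR, where 0.0134% of the genes tested passed in either direction. At an unadjusted p under 0.05 (edgeR) there were 2 of the 10, against 3036 of the 14912 genes tested. DESeq2 called Tcf21 higher and Prrx1 lower, where over all genes it called 740 higher and 738 lower. Tcf21 was at 1.81 ± 0.19 log2 per day (SE, adjusted p = 0.0794, edgeR) and Prrx1 at -0.56 ± 0.18 (SE, adjusted p = 0.196, edgeR). With 2 or 3 residual degrees of freedom these tests have little precision, and a slope that did not pass is not shown to be 0.

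The genes around the 10 factors in their pathways were mostly lower in suspension as well. Of 16 hedgehog genes 14 were tested and 14 were lower, with a median log2 ratio of -4.44, or -3.79 with Shh, which had 0 counts in suspension, at its bound of 3 counts per library. Gas1, a hedgehog co-receptor, was at 0.993, 1.81 and 0.693 CPM in suspension and at 16.0, 35.7 and 70.5 CPM in adherent libraries, and was higher on later days in adherent libraries (slope 1.07 ± 0.21 log2 per day, SE, adjusted p = 0.0384, edgeR). Smo, the signal transducer, had a log2 ratio of -2.95 ± 0.29, the receptor gene Ptch1, itself a target, one of -2.00 ± 0.37, and Gli3 one of -4.77 ± 0.54 (SE). Of 12 other T-box genes 5 passed the filter and 3 were lower: Mga, a partner of Max expressed in most cells, at -0.33 ± 0.11, Tbx18, a gene of mural and mesothelial cells, at -4.53 ± 0.60 (SE), and Eomes, which had 0 counts in suspension. The median of those 5 was -2.61, with Eomes at its bound or not, and the number lower was between 2 and 4 without 1 library. That median was -4.73 with the day 4 suspension library left out and -3.51 with the day as a block, and Tbx18 was at -5.12 with the day 5 suspension library left out. Mga was no longer called with the day as a block (adjusted p = 0.0620, edgeR), against a 2-fold difference, or with any 1 library of day 5 or 6 left out.

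Close relatives of the 10 genes were lower in 5 of 7 tested cases of 11 listed, with a median log2 ratio of -4.13 (-4.92 with the day 5 suspension library left out). Foxf2 was at -5.63 ± 0.64, Prrx2 at -4.69 ± 0.59, Twist2 at -4.01 ± 0.90 and Meox1 at -5.10 ± 0.88 (SE). With the day 5 suspension library left out, Foxf2 was at -6.31 and Twist2 at -4.92. Ratios between the counts of 2 relatives depend on their 3' ends, so only their change between libraries is informative. The count ratio of Prrx1 to Prrx2 was 6.44, 2.34 and 2.56 in suspension on days 4, 5 and 6, against 7.02, 2.47 and 1.69 in adherent libraries, so it was highest on day 4 in both. Meox2 had 13, 14 and 5 counts and Meox1 3, 2 and 5 in suspension, which are few for a ratio, and the ratio of Meox2 to Meox1 was 2.29, 1.70 and 22.25 in adherent libraries, with Meox1 at 24 counts on day 6. That of Tbx2 to Tbx3 was 1.98, 2.12 and 3.59 in suspension, against 1.94, 2.16 and 2.71 in adherent libraries.

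Of 7 E protein and Id genes, whose products pair with bHLH factors or block such pairs, 5 were lower and 1 higher, with a median of -1.09. The E protein genes Tcf4 and Tcf12 were at -2.72 ± 0.16 and -1.05 ± 0.09, and Id3, an inhibitor of such pairs, at -5.69 ± 0.54 (SE). Id2, another inhibitor, was higher, at 338, 285 and 300.4 CPM in suspension against 46.4, 86.5 and 155 CPM in adherent libraries (log2 ratio 1.68 ± 0.41, SE, adjusted p = 0.0137, edgeR). That call was lost with the day 5 adherent library left out (adjusted p = 0.0541) and against a 2-fold difference (adjusted p = 0.0959, edgeR). In adherent libraries Id2 and Id4 were higher on later days, at 0.87 ± 0.07 and 1.62 ± 0.29 log2 per day (SE).

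Of 19 other mesenchymal transcription factor genes 15 were tested and 14 were lower, with a median of -4.66. Nr2f2 (COUP-TFII) was at -4.66 ± 0.57, Hoxa5, needed for lung mesenchyme, at -5.10 ± 0.37, Snai1 at -4.82 ± 0.43 and Hoxb5 at -5.38 ± 0.64 (SE). Zeb2, which is also expressed in blood cells, did not pass, at 0.21 ± 0.27 (SE), and was called higher with the day 6 adherent library left out, at 0.56 (adjusted p = 0.0244, edgeR). Snai1 was at -5.48 with the day 4 suspension library left out. In adherent libraries Zeb2 and Osr1 were higher on later days, at 0.53 ± 0.08 and 0.45 ± 0.09 log2 per day (SE). Of 11 secreted signals of lung mesenchyme 9 were tested, 6 were lower and 1 higher, with a median of -4.71. Wnt2, which specifies lung endoderm, was at -6.07 ± 0.88, Bmp5 at -5.31 ± 0.73 and Wnt5a at -4.71 ± 0.71, and Igf1, which macrophages also make, was higher at 1.55 ± 0.43 (SE). With the day 5 suspension library left out, Wnt2 was at -7.20 and Bmp5 at -6.24. Igf1 was at 2.14 with the day 6 adherent library left out. Its call was lost with either day 5 library or the day 6 suspension library left out (adjusted p between 0.0566 and 0.0776, edgeR) and against a 2-fold difference (adjusted p = 0.157). Fgf10, the growth factor for epithelial branching, was at 4.36, 12.6 and 36.9 CPM in adherent libraries on days 4, 5 and 6, a slope of 1.54 ± 0.10 log2 per day (SE, adjusted p = 0.00898, edgeR). Igf1 and Hgf were higher on later days there too, at 0.76 ± 0.13 and 1.07 ± 0.20 (SE). The adherent slope calls of Gas1, Id2, Id4, Zeb2, Osr1, Fgf10, Igf1 and Hgf were each lost with the day 4 or the day 6 adherent library left out, and those of Id4, Zeb2, Osr1, Igf1 and Hgf with any 1 suspension library left out.

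**Figure D3:**
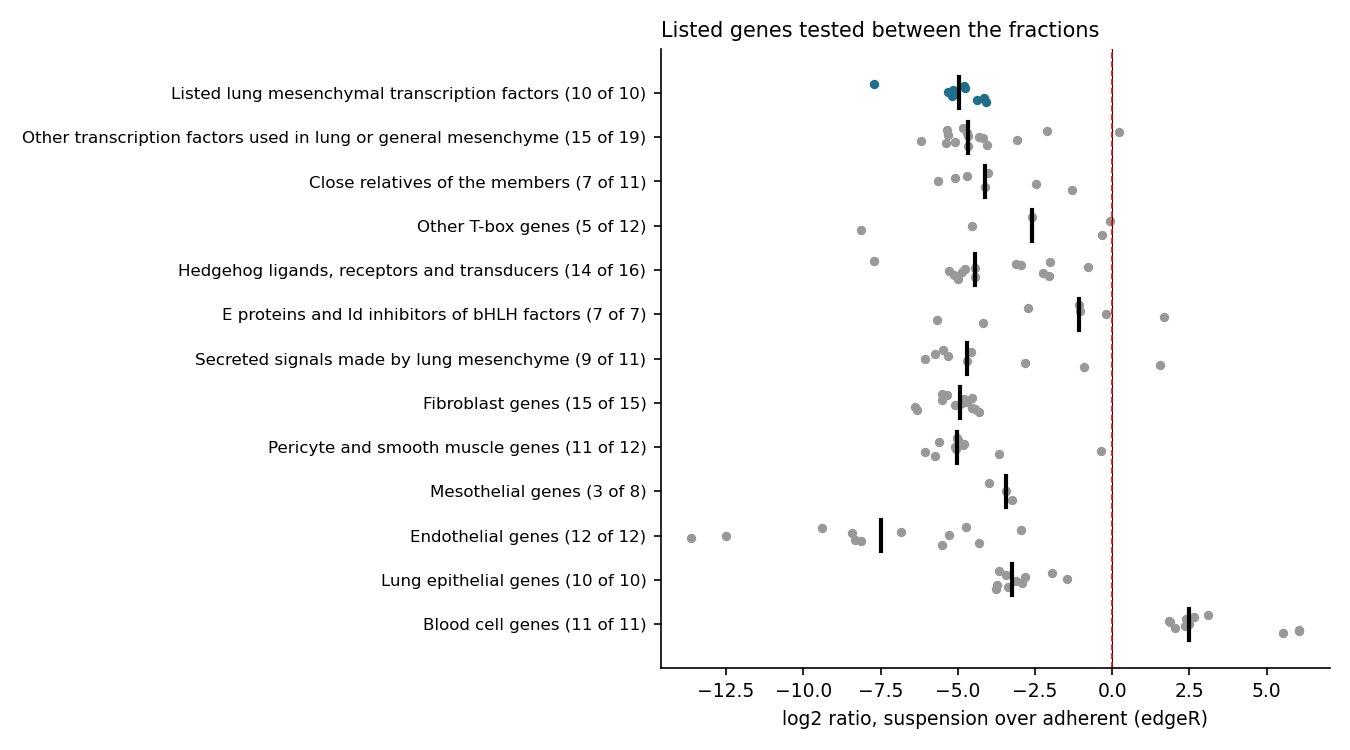
Log2 ratios of suspension over adherent libraries (edgeR) for the tested genes of each list, with the number tested of the number listed, 1 point per gene, a bar at the list's median and a dashed line at the median of all genes tested, -0.00247. The 10 factors lie between -7.70 and -4.07, and the blood genes lie above 0.

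Marker genes of other cell types were counted in the same libraries. The adherent cells were sorted to enrich for VE-cadherin, and how far this sort removed the cell types that follow was not tested. All 15 fibroblast genes were lower in suspension, with a median of -4.94 (-5.53 with the day 4 suspension library left out) and none at 0 counts. They summed to 98.0, 86.3 and 25.0 CPM in suspension on days 4, 5 and 6, against 2055, 2942 and 2990 CPM in adherent libraries. Of 12 pericyte and smooth muscle genes 10 of 11 tested were lower, with a median of -5.02 and sums of 133, 23.8 and 9.66 CPM in suspension against 3352, 771 and 967 CPM in adherent libraries. That median was -6.53 with the day 4 suspension library left out and -3.94 with the day 4 adherent library left out, and 7 to 10 genes were lower with any 1 library left out. The fibroblast genes called higher on later days in adherent libraries, as Tcf21 was, were Eln (elastin) at 2.39 ± 0.18, Mfap4 (a microfibril protein) at 1.83 ± 0.26 and Dcn (decorin) at 1.11 ± 0.12 log2 per day, whereas Thy1 fell, at -0.80 ± 0.09 (SE). Each of these calls was lost with the day 4 or the day 6 adherent library left out. Of 15 fibroblast genes 3 were called higher on later days and 1 lower, against 9 and 0 of 11 blood genes. The blood calls were each lost with the day 6 adherent library left out. Of 11 pericyte and smooth muscle genes tested 1 was called higher and 2 lower, and of 3 mesothelial genes tested 1 and 1. A higher level on later days was thus not particular to fibroblast genes. Of 8 mesothelial genes 3 of 3 tested were lower, with a median of -3.45 (1 without the adherent library of day 6, 0 without the suspension library of day 5 or 6). They summed to 4.00, 1.41 and 0.515 CPM in suspension against 60.2, 16.0 and 12.8 CPM in adherent libraries, with Wt1 and Bnc1 at 0 counts in suspension and Lrrn4 at 0 in all 6 libraries. The median was -5.22 with the day 4 suspension library left out, and 2 genes were lower with the day as a block. All 10 epithelial genes were tested and 5 were lower, with a median of -3.25 and sums of 264, 37.8 and 13.8 CPM in suspension against 1470, 350.2 and 976 CPM in adherent libraries. With a suspension library left out, 9 (day 4), 0 (day 5) and 3 (day 6) epithelial genes were lower. There were 3 when the day 4 adherent library was left out and 10 with the day as a block. The epithelial median was -5.30 with the day 4 suspension library left out and -2.63 with the day 4 adherent library left out. Over the adherent days the fibroblast sum, like that of the 10 factors, was highest on day 6. So was the blood sum, at 2574, 4161 and 7825 CPM, and so were the hedgehog and mesenchymal signal sums. The endothelial sum was highest on day 5, and the pericyte and smooth muscle, mesothelial and epithelial sums on day 4. The part of these cell types in the levels of the 10 factors was not tested.

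Count ratios within a library set 2 of the factors against an endothelial and a fibroblast gene. The count ratio of Prrx1 to Cdh5 was 33.1, 10.25 and 11.5 in suspension, against 0.620, 0.324 and 0.791 in adherent libraries, with 7, 16 and 6 counts of Cdh5 in suspension. That of Tbx4 to Cdh5 was 11.6, 3.31 and 7.00 in suspension and 0.241, 0.199 and 0.814 in adherent libraries. Against Col1a2, a fibroblast collagen gene, the count ratio of Prrx1 was 0.215, 0.186 and 0.304 in suspension and 0.146, 0.0858 and 0.0946 in adherent libraries. Cdh5 encodes the protein used for the adherent sort, so its own difference between the fractions is not a result.

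Likeness of pattern was measured over the 6 libraries as the root mean square difference of centred log2(CPM + 0.5) values, among 9861 genes with a mean of at least 5 CPM. Nearest to Tcf21 were Svep1, an extracellular matrix protein gene, at 0.272, and Vegfd, a growth factor for lymphatic vessels, at 0.344. Svep1 was at 1.11, 1.79 and 1.37 CPM in suspension and at 10.7, 23.3 and 102 CPM in adherent libraries. Nearest to Tbx2 were Fibin (0.131) and Foxf2 (0.149), to Tbx3 Foxf2 (0.140) and Adamts2 (0.151), to Tbx4 Snai2 (0.110) and Tmem45a (0.158), and to Tbx5 Antxr1 (0.102) and Pdgfra (0.110). Nearest to Foxf1 were Spats2l (0.111) and Hoxb7 (0.120), to Prrx1 Spats2l (0.0938) and Mpdz (0.0944), to Meox2 Scara3 (0.134) and Ltbp4 (0.145), and to Twist1 Mdfi (0.0771), whose product binds bHLH factors, and Hspb8 (0.108). Gli1 was nearest to Il6st (0.121) and Filip1l (0.222), but at its low level the added 0.5 CPM flattens the pattern. It also flattens the suspension values of Tcf21 and Meox2, which were below 0.5 CPM in every suspension library. Tbx3, Tbx5, Foxf1 and Twist1 were below 0.5 CPM in suspension on day 6. Svep1 and Vegfd had log2 ratios of -4.99 and -5.98, against -7.70 for Tcf21. Scara3 and Ltbp4 had -4.39 and -4.45, against -5.17 for Meox2. Il6st and Filip1l had -1.53 and -1.48, against -4.07 for Gli1. Foxf2 had -5.63, against -4.79 for Tbx2 and -4.76 for Tbx3, and Tmem45a had -6.09, against -5.15 for Tbx4. The other genes named here lay nearer to the log2 ratio of their factor. Among the 10 factors themselves the closest pair was Foxf1 and Prrx1 (0.162), and Tcf21 and Gli1 were at least 0.877 from every other.

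Reads on the opposite strand made up at most 3.53% of the reads over Tcf21, Tbx2, Tbx4, Meox2, Twist1 and Prrx1 in either fraction. They made up 8.13% over Tbx5 in suspension, 10 counts, and 5.11% in adherent libraries, 235 counts, and over Foxf1 20.8% in suspension, 22 counts, and 2.90% in adherent libraries, 85 counts. Over Gli1 they made up 98.6% of the reads in suspension, 578 antisense against 8 sense counts, and 41.4% in adherent libraries, 96 against 136. Arhgap9, a blood cell gene on the other strand whose end overlaps that of Gli1, had 2904, 2796 and 4056 sense counts in suspension on days 4, 5 and 6, against 207, 322 and 592 in adherent libraries. Gm47200, annotated across Gli1 on that strand, had 0 counts. Over Tbx3 the antisense share was 29.6% in suspension, 55 counts, and 28.0% in adherent libraries, 1348 counts, where over all genes it was between 6.24% and 7.30% in the 6 libraries. Tbx3os1, which overlaps the start of Tbx3 on the other strand, had 0, 5 and 9 sense counts in suspension and 66, 204 and 477 in adherent libraries. The part of Arhgap9 and Tbx3os1 in these antisense counts was not tested. Among other neighbours, Gm43050 next to Tbx5 had 10, 20 and 2 counts in suspension and 315, 456 and 631 in adherent libraries, and Gm26523, which lies within Prrx1 on the same strand, had 8, 2 and 2 in suspension against 115, 84 and 87 in adherent libraries. Gm10824 over Tcf21 had 0 counts in suspension and 2, 5 and 9 in adherent libraries. Gm20388 and Gm29007, near Foxf1 and Meox2, had 0 counts, Gm20471 within Prrx1 had 1, and Fendrr, the gene that starts beside Foxf1, was not analysed here.

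**Figure D4:**
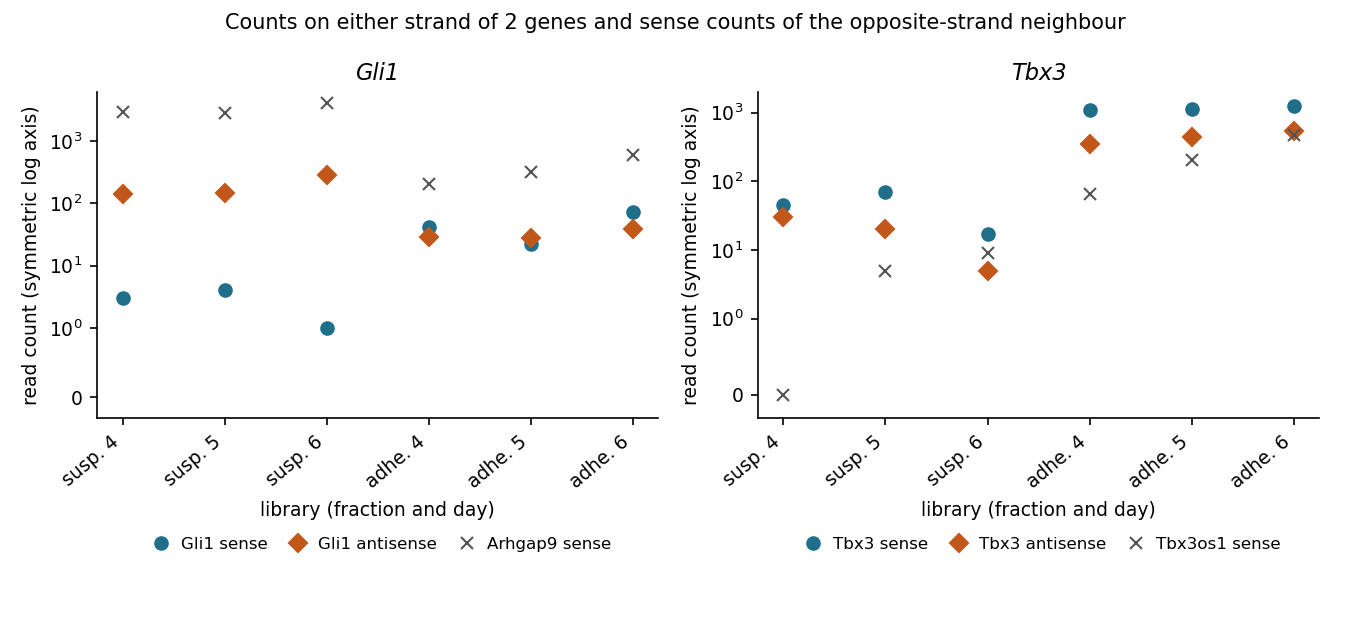
Read counts (symmetric log axis) on the sense and antisense strand of Gli1 (left) and Tbx3 (right) in the 6 libraries, suspension left of adherent by day, with the sense counts of the opposite-strand neighbour. In suspension Gli1 has 144, 145 and 289 antisense counts beside 3, 4 and 1 sense counts.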

How the data were processed

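Libraries were made with a 10x 3' v3 kit. Per the submitters' processing notes, bcl2fastq, Cell Ranger and STARsolo were used with mm10; their versions and the annotation release are not named in these sources. The authors deposited read counts per gene and whole library, with 4 summary lines and with either-strand, sense and antisense columns. They are read counts without a cell axis, and reads mapping to several places are a summary line and not assigned to genes. Sense counts were used. GENCODE M21, on GRCm38 (mm10), gave symbols and positions for 30934 of 31053 identifiers.

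Genes were filtered with filterByExpr, which left 14912 of 22019 with a count, scaled by TMM and tested with the quasi-likelihood test of edgeR 4.0.16 (limma 3.58.1, R 4.3.3), adjusted by Benjamini-Hochberg at 0.05. SE is the absolute log2 value over the square root of F. Residual degrees of freedom were 4 for the fractions, 3 for a common slope and 2 for separate slopes. Library totals of 36451255 to 57784974 set the precision. The code was tested on simulated data.

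Alternatives were reads on either strand, DESeq2 1.42.0 size factors and Wald test, no filter, at least 10 CPM in 3 libraries, thinned counts, globin and mitochondrial genes left out, each library left out, the day as a replicate block and a test against a 2-fold difference. The labels give both fractions a shared day: across genes, departures from the mean of a fraction had correlations of 0.318, 0.0952 and 0.253 between libraries sharing a day and between -0.285 and 0.0217 otherwise, where genes are not independent replicates.

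The 10 genes and the 12 other lists (143 different genes) were chosen with earlier results of these data known. Named are the 10 genes; up to 4 called genes of each other list with the highest mean CPM in a comparison, of which some marker genes are left unprinted; the 2 genes most alike in pattern; and annotated genes that overlap one of the 10 or start within 5 kb of its start. Among these annotated genes, Fendrr, 2610027K06Rik, Gm27530, Gm48617 and Gm37644 have no entry in the deposited counts. Of the 10 genes, 5 share no 50-base stretch with another gene's transcripts, and Gli1 shares the most, 4.51%.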

Additional observations from a re-analysis of the deposited data

Results flagged for a closer look

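The slope of Tbx4 per day, suspension minus adherent, was -1.08 log2 and was picked out because the test of that difference passed (adjusted p = 0.0485, edgeR quasi-likelihood test, Benjamini-Hochberg adjusted). The level was lower on each later day in the suspension libraries and higher on each later day in the adherent libraries.

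Antisense counts are outside the main measurement and were picked out where their share was above that over all genes and every library of a fraction had more than 3, a criterion set after the counts were seen. Gli1 had 578 antisense counts in suspension and 96 in adherent libraries. Tbx3 had 55 in suspension and 1348 in adherent libraries.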

How the results depend on the processing

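In the fraction contrast all 10 factors were lower under every alternative, except that the filter of at least 10 CPM in 3 libraries tested 7 of them, and 7 were lower. The day as a replicate block changed no call of the 10 (10 lower; 4074 genes higher and 4343 lower). Over all genes, 4044 were higher and 4423 lower, against 2365 and 2741 with the 10 CPM filter and 1308 and 2451 in the test against a 2-fold difference; without 1 library the counts were 2906 to 4121 and 3616 to 4358. With the 10 CPM filter, which tests fewer genes, 6 hedgehog genes, 2 relatives, 1 T-box gene, 3 epithelial and 0 mesothelial genes were lower, and against a 2-fold difference 3 E protein and Id genes, 3 epithelial and 0 mesothelial genes. All scalings moved the median of all genes by less than 0.1 log2. Depth limits Gli1 and Tcf21 in suspension, with 8 and 12 counts.

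The calls on slopes were less stable; the cause was not tested. For the common slope 2 genes were higher and 0 lower, against 740 and 738 by DESeq2, 27 and 39 with no filter, 0 higher without globin and mitochondrial genes and 1 lower with thinned counts, and 0 to 3 and 0 to 4 without 1 library. Of the 10 factors, 1 was higher and 1 lower by DESeq2, and 1 higher with no filter. For the slope difference 8 genes were higher and 69 lower, against 208 and 825 by DESeq2, 159 and 847 with no filter, 4 higher with reads on either strand, 15 higher with the 10 CPM filter, 0 and 1 with thinned counts, 0 and 0 without globin and mitochondrial genes, and 0 to 138 and 0 to 669 without 1 library. Of the factors, 1 was lower, against 5 by DESeq2, 4 with no filter, 0 with thinned counts, 0 without globin and mitochondrial genes, and 0 to 1 without 1 library. For the adherent slope 1156 genes were higher and 525 lower, against 1738 and 908 with no filter, 901 lower by DESeq2, and 167 to 1866 and 51 to 974 without 1 library. Of the factors 2 were higher, against 1 with the 10 CPM filter, which does not test Tcf21, and 0 to 2 without 1 library. For the suspension slope 14 genes were higher and 60 lower, against 189 and 613 by DESeq2, 204 and 605 with no filter, and 0 to 162 and 0 to 345 without 1 library. Of the factors 0 were lower, against 4 by DESeq2, 4 with no filter and 0 to 2 without 1 library.

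Slopes that changed sign did not pass in either setting. By DESeq2 the common slopes of Tbx4 and Meox2 were -0.0511 and -0.0073. With reads on either strand the slope difference of Gli1 was 0.15 and its suspension slope 0.46. Without 1 library the common slope was between -0.18 and 0.35 for Tbx2, -0.45 and 0.12 for Tbx3, -0.33 and 0.29 for Tbx4, -0.43 and 0.18 for Tbx5, -0.45 and 0.34 for Meox2 and -0.73 and 0.39 for Gli1. The slope difference was between -1.04 and 0.41 for Tcf21, -1.85 and 0.40 for Tbx2, -2.37 and 0.54 for Tbx3 and -2.55 and 0.0928 for Gli1. The adherent slope was between -0.25 and 0.14 for Foxf1, -0.36 and 0.27 for Twist1 and -0.77 and 1.61 for Gli1. The suspension slope was between -1.56 and 0.69 for Tbx2, -2.32 and 0.59 for Tbx3, -1.76 and 0.0844 for Meox2 and -2.15 and 0.38 for Gli1.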
